A study of Mus musculus with 6 samples.

Results

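The eosinophil genes described here are 10 mouse genes, Siglec5, Ccr3, Il5ra, Alox15, Cebpe, Prg2, Epx, Ear1, Ear2 and Ear6, out of 23049 genes listed with normalised expression values. They were found by their symbols, and each symbol had 1 entry. The genes were selected on their known place in eosinophils and on levels measured in these same libraries. Which of those levels weighed in the choice is not recorded, so levels and differences of the 10 genes are given as a description, without a test. The libraries came from F4/80+ cells sorted by flow cytometry from the dispersed stomach corpus of mice given 1 of a pair of parietal cell toxicants. The L635 group, with 3 libraries, was labelled as coming from intestinalised spasmolytic polypeptide-expressing metaplasia (SPEM), and the DMP-777 group, also with 3 libraries, as coming from SPEM. DMP-777 is a neutrophil elastase inhibitor that also destroys acid-secreting parietal cells, and L635 is a related compound that destroys parietal cells without inhibiting the elastase. The labels give no genotype, strain, age, sex, dose or treatment time, nor how many animals went into a library, and all 6 libraries are from drug-treated mice. They also leave unsaid whether replicates came from separate animals, so p-values measure the spread between these libraries, which may be technical.

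Eosinophils are granulocytes of type 2 immunity. They mature in the bone marrow under interleukin 5 and the transcription factors C/EBP epsilon and GATA-1, and enter tissues along gradients of eotaxins, the chemokines sensed by the receptor CCR3. The mouse stomach and intestine hold resident eosinophils in health. Mouse eosinophils carry F4/80, usually at a lower level than macrophages, so a gate set on F4/80 alone can hold both cell types. Their granules store cationic proteins, among them eosinophil peroxidase, major basic protein and ribonucleases of the eosinophil-associated family.

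Values are taken as levels in RPKM, read counts scaled by transcript length and by the library's mapped reads. No label names the unit, and the lowest listed value was exactly 1.0 in each library. A gene at 1.0 is called at the floor, which can stand for any lower level. Depth, estimated from the spacing of low values and uncertain to a factor of 2, was 8700000, 4300000 and 20900000 reads in the L635 libraries and 13900000, 11400000 and 21000000 reads in the DMP-777 libraries. L635 replicate 2, in which most of the eosinophil genes were highest, had the lowest estimate, though the uncertainty does not fix the order of the libraries. From 11459 to 12955 genes were above the floor per library, and 12102 genes above it in at least 3 libraries entered the comparison of L635 with DMP-777.

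Macrophage genes were expressed in every library, and all 12 genes of a macrophage list were above the floor in each. Csf1r was at 164.8, 100.4 and 79.8 RPKM in the L635 libraries and at 76.9, 161.5 and 170.0 RPKM in the DMP-777 libraries. Emr1 encodes F4/80, the sorting marker, which eosinophils also carry. It was at 97.9, 127.0 and 41.3 RPKM in the L635 libraries and at 46.1, 88.5 and 94.3 RPKM in the DMP-777 libraries. Support for the eosinophil label was partial. Siglec5, Il5ra, Alox15 and Ear2 were above the floor in all 6 libraries, but macrophages can also express Alox15 and Ear2. Il5ra did not exceed 1.79 RPKM outside L635 replicate 2 and DMP-777 replicate 1. Ccr3 and Cebpe were above the floor in 5 libraries, and Prg2, Ear1 and Ear6 in 3. Epx, the gene of the granule protein eosinophil peroxidase, was at the floor in all 6. These levels alone do not settle whether eosinophils were in the gate. Since each library is a bulk sample, fewer cells of a type and less RNA per cell cannot be told apart.

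RefSeq promoter windows (GRCm38.p6, from 250 bases before to 50 bases after the start) were found for 7 of the 10 genes, namely Siglec5, Ccr3, Il5ra, Epx, Ear1, Ear2 and Ear6. Shown 5′ to 3′ along the gene are the windows of Siglec5 and Ccr3, whose levels moved together across libraries, and of the related ribonuclease genes Ear1, Ear2 and Ear6, among which Ear2 had a different profile. Capitals mark matches on either strand to GATA motifs (AGATAA, the variant ending in G written AGATAG, and those starting with T, written TGATAA when ending in A and TGATAG when ending in G) or to the C/EBP-like motif TTGCNNAA. Matches of the 2 motifs did not overlap.
Siglec5 (chr7:43351091-43351390, plus strand): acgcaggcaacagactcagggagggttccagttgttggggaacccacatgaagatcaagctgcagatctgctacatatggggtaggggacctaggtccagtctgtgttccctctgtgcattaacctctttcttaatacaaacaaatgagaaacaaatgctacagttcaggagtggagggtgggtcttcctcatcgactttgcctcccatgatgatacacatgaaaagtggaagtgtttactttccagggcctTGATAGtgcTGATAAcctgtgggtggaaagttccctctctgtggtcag
Ccr3 (chr9:124021721-124022020, plus strand): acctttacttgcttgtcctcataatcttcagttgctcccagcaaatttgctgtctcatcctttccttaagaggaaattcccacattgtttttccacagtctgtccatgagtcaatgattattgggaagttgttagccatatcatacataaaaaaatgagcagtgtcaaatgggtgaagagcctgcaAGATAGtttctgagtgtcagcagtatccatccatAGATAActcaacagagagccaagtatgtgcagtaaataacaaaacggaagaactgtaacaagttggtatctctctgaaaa
Ear1 (chr14:43819590-43819889, minus strand): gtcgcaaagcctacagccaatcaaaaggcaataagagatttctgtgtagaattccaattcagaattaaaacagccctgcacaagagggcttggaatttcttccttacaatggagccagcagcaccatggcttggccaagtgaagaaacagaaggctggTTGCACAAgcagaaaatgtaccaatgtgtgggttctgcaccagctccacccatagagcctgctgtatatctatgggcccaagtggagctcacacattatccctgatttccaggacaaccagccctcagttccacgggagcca
Ear2 (chr14:44102404-44102703, plus strand): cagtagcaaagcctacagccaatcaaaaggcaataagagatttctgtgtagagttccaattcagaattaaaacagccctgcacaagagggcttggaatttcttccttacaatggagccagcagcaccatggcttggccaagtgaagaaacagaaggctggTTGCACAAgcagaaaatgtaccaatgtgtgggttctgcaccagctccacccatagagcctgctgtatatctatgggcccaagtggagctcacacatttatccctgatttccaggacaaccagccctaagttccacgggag
Ear6 (chr14:51853518-51853817, plus strand): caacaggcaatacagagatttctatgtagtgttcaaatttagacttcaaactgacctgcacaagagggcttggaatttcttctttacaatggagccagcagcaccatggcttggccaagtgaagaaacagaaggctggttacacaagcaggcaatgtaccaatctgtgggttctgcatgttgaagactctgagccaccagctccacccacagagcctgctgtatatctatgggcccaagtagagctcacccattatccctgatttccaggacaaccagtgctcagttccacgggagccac

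GATA motifs were in the windows of 3 genes, all of which encode cell surface receptors. Siglec5 had TGATAG followed closely by TGATAA just downstream of the start. Upstream of its start, Ccr3 had AGATAG and, nearer to the start, AGATAA. In Il5ra, AGATAA lay upstream of a RefSeq start that falls outside the gene's coordinates in the table. At least 1 GATA match was present in 29.8% of 32851 mouse windows of this length, and at least 2 in 7.8%. The windows of Ear1 and Ear2 each held the C/EBP-like match TTGCACAA, and that of Ear6 held neither motif. The C/EBP-like motif was in 10.8% of all windows. Over the aligned bases, the Ear1 and Ear2 windows were 99.0% identical, and that of Ear6 was 92.8% identical to each of them. A match describes letters in the window and does not show that a factor binds there.

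Siglec5 (chr7:43351341-43359531, plus strand) encodes Siglec-F, a sialic acid-binding inhibitory receptor used to sort mouse eosinophils. Its level was 7.6, 51.0 and 6.42 RPKM in the L635 libraries and 5.46, 6.69 and 15.2 RPKM in the DMP-777 libraries. L635 replicate 2 was highest and DMP-777 replicate 3 next, the other 4 libraries lay close together, and the groups overlapped. The highest library was 3.35 times the second and 7.62 times the median of the other 5. Coordinates are those of the table and match GRCm38.

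Ccr3 (chr9:124021971-124031689, plus strand), the eotaxin receptor, was at 2.11, 77.5 and 3.27 RPKM in the L635 libraries and at 1.0, 6.14 and 13.5 RPKM in the DMP-777 libraries. The order at the top was that of Siglec5, with L635 replicate 2 first and DMP-777 replicate 3 second. The groups overlapped, and DMP-777 replicate 1 was at the floor. The level in L635 replicate 2 was 23.7 times the median of the other 5 libraries.

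Il5ra (chr6:106711975-106745109, minus strand), the ligand-binding chain of the interleukin 5 receptor, was at 1.28, 15.6 and 1.79 RPKM in the L635 libraries and at 4.41, 1.63 and 1.32 RPKM in the DMP-777 libraries. L635 replicate 2 was again highest, but the second library was DMP-777 replicate 1. DMP-777 replicate 3, second for Siglec5 and Ccr3, was near the floor for Il5ra.

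Alox15 (chr11:70344152-70352031, minus strand), which encodes the 12/15-lipoxygenase that oxygenates arachidonic acid and is made by eosinophils and by some macrophages, had 15.7, 161.6 and 17.9 RPKM in the L635 libraries. In the DMP-777 libraries it had 13.7, 27.2 and 67.9 RPKM. L635 replicate 2 was 2.38 times the next library, DMP-777 replicate 3, and the groups overlapped. Alox15 was well above the floor everywhere and is not specific to eosinophils.

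Cebpe (chr14:54710363-54712174, minus strand), the transcription factor of late granulocyte maturation in eosinophils and neutrophils, was at 3.87, 18.8 and 1.0 RPKM in the L635 libraries. Its DMP-777 libraries were at 1.76, 5.95 and 14.5 RPKM. The highest library, L635 replicate 2, exceeded DMP-777 replicate 3 by only 1.3 times, and the groups overlapped.

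Among the granule protein genes, Prg2 sat at the floor in 3 libraries and Epx in all 6. Prg2 (chr2:84980461-84983632, plus strand), which encodes major basic protein, was at 1.0, 14.6 and 3.55 RPKM in the L635 libraries and at 1.0, 1.0 and 5.41 RPKM in the DMP-777 libraries. L635 replicate 2 was highest and DMP-777 replicate 3 second, and the groups overlapped. Epx (chr11:87864000-87875536, minus strand), which encodes eosinophil peroxidase, was at 1.0 RPKM in all 6 libraries. At the estimated depths, that floor corresponds to about 24, 12 and 57 reads in the L635 libraries and 38, 31 and 57 reads in the DMP-777 libraries, so lower levels of Epx would not have been seen.

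Of the 3 eosinophil-associated ribonuclease genes, Ear1 and Ear6 were low and Ear2 was high. Over the 6 libraries, Pearson's r was 0.72 between Ear1 and Ear6, 0.58 between Ear1 and Ear2 and 0.05 between Ear2 and Ear6, as a description. Ear6 (chr14:51853699-51854643, plus strand) was at 1.0, 21.3 and 2.83 RPKM in the L635 libraries and at 1.0, 1.0 and 3.64 RPKM in the DMP-777 libraries. It was highest in L635 replicate 2, like Prg2, and the groups overlapped. Ear1 (chr14:43818765-43875517, minus strand) was at 1.0, 3.53 and 1.0 RPKM in the L635 libraries and at 1.0, 1.44 and 4.15 RPKM in the DMP-777 libraries. DMP-777 replicate 3 was highest and L635 replicate 2 second, and the groups overlapped.

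Ear2 (chr14:44102654-44103534, plus strand) was the exception in level and in spread. It was at 154.0, 149.6 and 73.3 RPKM in the L635 libraries and at 104.2, 200.7 and 206.7 RPKM in the DMP-777 libraries. The highest library was 2.82 times the lowest, the groups overlapped, and L635 replicate 2 did not stand apart. Mouse macrophages and monocytes also express Ear2.

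Reads of these ribonuclease genes are not fully separable. The Ear1 and Ear2 transcripts were 96.8% identical over 713 aligned bases, and Ear6 was 88.8% identical to Ear1 and 89.2% to Ear2. Of the windows of 50 bases, 57.4% of those in Ear1 and 41.5% of those in Ear2 occurred in a transcript of another gene, against 1.4% in Ear6. The labels do not say how reads that match several genes were assigned, so the split between Ear1 and Ear2 is uncertain.

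**Figure D1:**
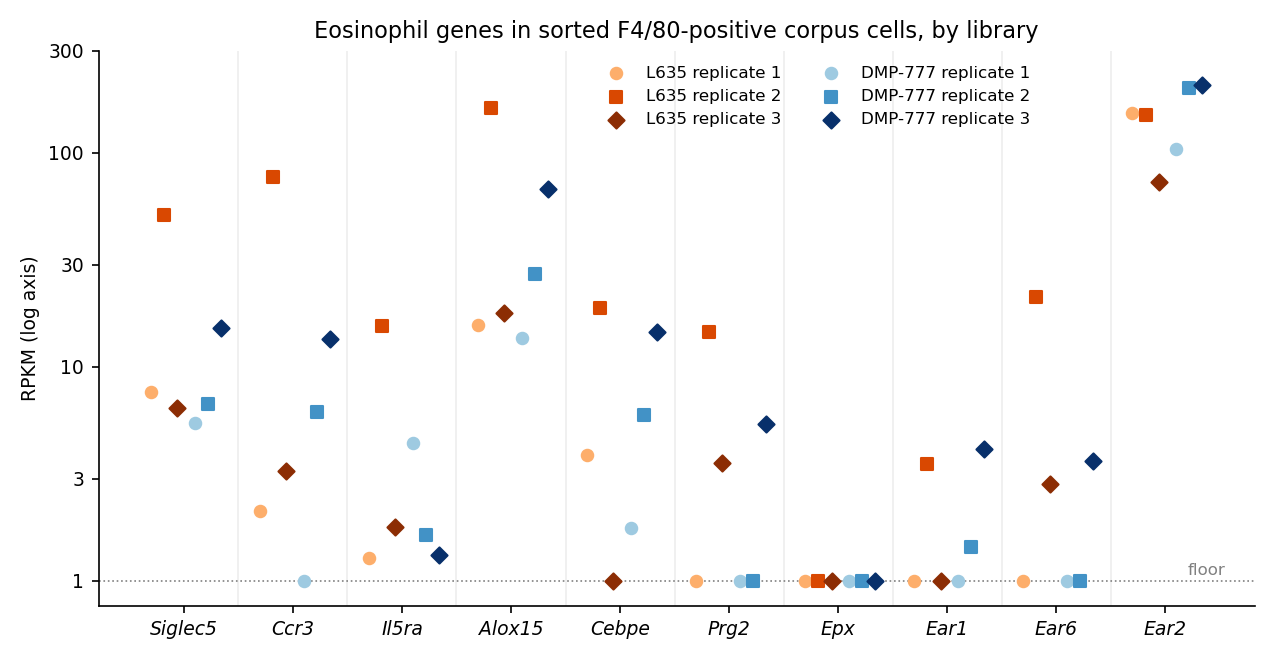
RPKM on a log axis of the 10 eosinophil genes in each of the 3 L635 and 3 DMP-777 libraries; a value of 1.0 is the floor. Siglec5, Ccr3, Il5ra, Alox15, Cebpe, Prg2 and Ear6 are highest in L635 replicate 2, Ear2 is high in all 6 libraries, and Epx is at the floor throughout.

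Across the 10 genes, 9 were above the floor in at least 3 libraries. A library of the L635 group, replicate 2, was the highest for 7 of the 10 genes, and DMP-777 replicate 3 was the highest for Ear1 and Ear2. Over all genes tested, L635 replicate 2 was the highest for 11.3% and DMP-777 replicate 3 for 15.0%. For 6 genes L635 replicate 2 was first and DMP-777 replicate 3 second, an order held by 2.12% of all genes tested. In 7 genes, L635 replicate 2 was at least 3 times the median of the other 5 libraries, as it was in 2.24% of all genes tested. Since levels in these libraries entered the choice of the genes, nothing is read from these shares.

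The genes also differed in how closely they followed each other. Each gene was correlated over the 6 libraries with the mean of the other members above the floor, each standardised over the libraries. This is a description of points that share the same libraries. Pearson's r was 0.99 for Alox15, 0.97 for Siglec5 and 0.97 for Ccr3, and from 0.85 to 0.89 for Prg2, Ear1, Ear6 and Cebpe. It was 0.57 for Il5ra and 0.34 for Ear2. With 6 points and 1 library far above the rest, these values rest largely on L635 replicate 2.

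The comparison of L635 with DMP-777 asked how F4/80+ cells differ between the metaplasias that the 2 drugs induce. The mean log2(RPKM + 1) of the 10 genes was 2.36, 4.66 and 2.40 in the L635 libraries and 2.22, 2.67 and 3.51 in the DMP-777 libraries. The L635 group averaged 3.14 ± 1.31 and the DMP-777 group 2.80 ± 0.66 (SD, n = 3 each), a difference of 0.34 that was smaller than the spread within either group. Without L635 replicate 2 the difference was -0.42. It was 0.73 and 0.70 without L635 replicates 1 and 3, and 0.05 and 0.69 without DMP-777 replicates 1 and 3.

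None of the 10 genes had groups that did not overlap, against 16.0% of all genes tested. The log2 difference was above 0 for 6 of the 9 genes tested and below 0 for 3, with a median of 0.56, whereas all 12102 genes tested had 6072 above 0 and 6030 below with a median of 0.00. The limma fit called 0 of these 12102 genes (0.0%) at an adjusted p below 0.05, and 1223 genes (10.1%) had an unadjusted p below 0.05. The absence of calls does not show that the groups were alike.

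Differences of single genes are given with their standard errors as a description. On the log2(RPKM + 1) scale, which understates changes of low genes, Ear6 differed by 1.07 ± 0.74, Prg2 by 0.82 ± 0.70 and Ccr3 by 0.78 ± 1.04 (L635 minus DMP-777, ± SE, n = 3 each). Siglec5 differed by 0.68 ± 0.66, Il5ra by 0.56 ± 0.68 and Alox15 by 0.28 ± 0.75. Below 0 were Ear2 at -0.45 ± 0.39, Cebpe at -0.21 ± 0.79 and Ear1 at -0.16 ± 0.47.

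The direction of most genes changed when 1 library or another was left out. Without L635 replicate 2, 2 genes were above 0, 7 were below and the median was -0.55. Siglec5 at -0.22, Ccr3 at -0.70, Il5ra at -0.35 and Alox15 at -0.78 changed sign. Ear1, Ear2 and Cebpe were below 0 with all libraries too. Prg2 at 0.03 and Ear6 at 0.06 were the 2 that stayed above 0. Without DMP-777 replicate 3, 8 genes were above 0 and the median was 0.87, with Ccr3 at 1.42 and Ear6 at 1.47. Cebpe was at 0.56 without L635 replicate 3 and at 0.40 without DMP-777 replicate 3. Ear1 was at 0.04 without L635 replicate 1 or 3 and at 0.25 without DMP-777 replicate 3, and Alox15 was at -0.25 and Ccr3 at -0.00 without DMP-777 replicate 1. Ear2 was below 0 whichever single library was left out, between -0.77 and -0.10.

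**Figure D2:**
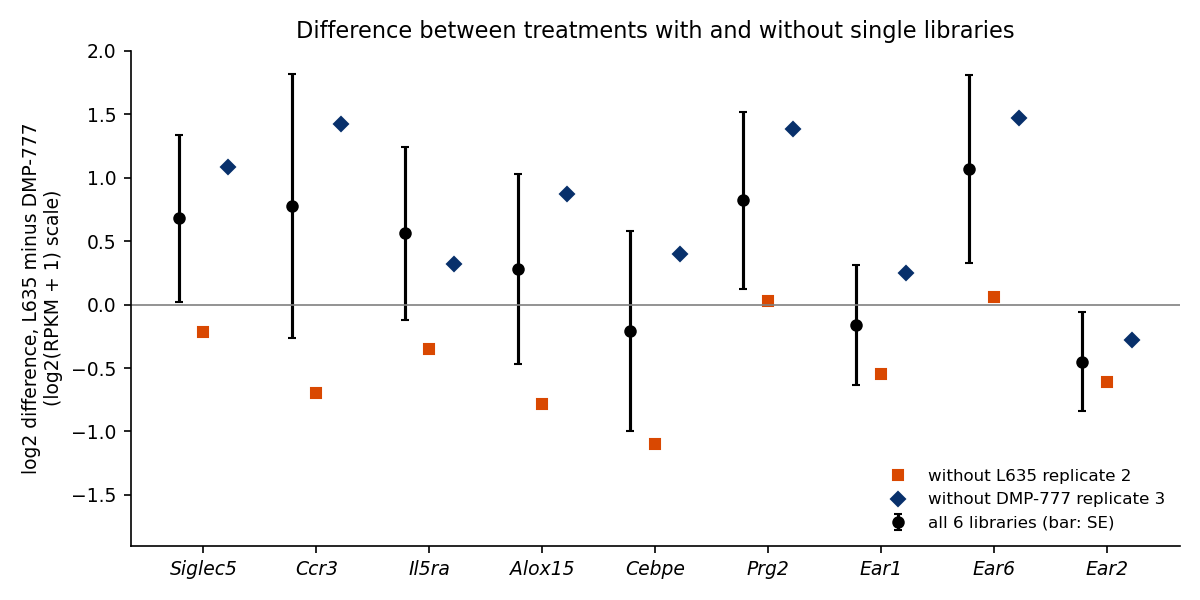
Difference in log2(RPKM + 1), L635 minus DMP-777, of the 9 tested eosinophil genes with all 6 libraries (points with standard errors) and without L635 replicate 2 or DMP-777 replicate 3. Without L635 replicate 2 the values of Siglec5, Ccr3, Il5ra and Alox15 lie below 0.

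The profile was also set against the leukocyte content of each library. The mean log2 level of 10 pan-leukocyte genes was 6.81, 6.89 and 6.05 in the L635 libraries and 6.32, 6.87 and 6.91 in the DMP-777 libraries, so L635 replicate 2 did not stand apart in that mean. Single genes of the list did not all follow it. Ptprc was at 42.0, 90.9 and 61.7 RPKM in the L635 libraries and 15.3, 15.2 and 33.5 RPKM in the DMP-777 libraries. Ptprc was the 1 gene of the list higher in L635, with 9 lower (limma adjusted p = 0.406 for Ptprc). Relative to the pan-leukocyte mean, Ccr3 was at -5.17, -0.60 and -3.96 in the L635 libraries and at -5.32, -4.03 and -3.05 in the DMP-777 libraries. Siglec5 was at -3.71, -1.19 and -3.16 in the L635 libraries and at -3.63, -3.92 and -2.89 in the DMP-777 libraries. L635 replicate 2 remained first and DMP-777 replicate 3 second for both genes. Alox15 exceeded the pan-leukocyte mean only in L635 replicate 2, by 0.46, while Ear2 exceeded it in all 6 libraries, by 0.16 to 0.79.

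Set against the gate's own marker, the same library stood out. Per 100 RPKM of Emr1, Ccr3 had 2.16, 61.0 and 7.93 RPKM in the L635 libraries and 2.17, 6.94 and 14.3 RPKM in the DMP-777 libraries. Siglec5 had 7.76, 40.2 and 15.6 RPKM in the L635 libraries and 11.9, 7.56 and 16.1 RPKM in the DMP-777 libraries. Ear2 had 157, 118 and 178 RPKM in the L635 libraries and 226, 227 and 219 RPKM in the DMP-777 libraries. Per unit of Emr1 its groups did not overlap, whereas in RPKM they did. The share of all genes that separate per unit of Emr1 was not computed, so nothing is read from this. The ratio was one of several measures looked at for Ear2 and was not tested.

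**Figure D3:**
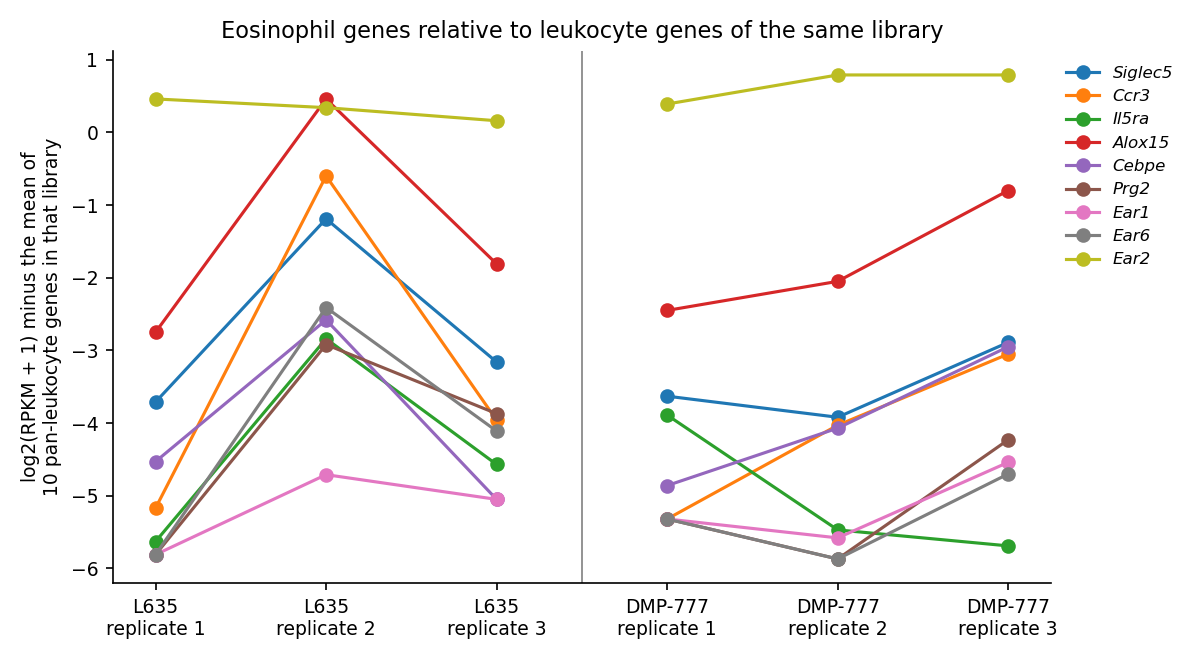
Log2(RPKM + 1) of each eosinophil gene above the floor minus the mean of 10 pan-leukocyte genes in the same library, for L635 libraries on the left and DMP-777 libraries on the right; lines join the points of a gene and imply no order of replicates. Most genes peak in L635 replicate 2, and Ear2 stays between 0.16 and 0.79 in all libraries.

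A wider list of eosinophil genes by role, chosen with earlier results known, held 59 further genes, of which 55 were in the table and 45 were tested. None was called by limma after adjustment over all genes, 3 of the 45 had an unadjusted p below 0.05 against 10.1% of all genes tested, 27 were higher in L635 and 18 lower, and the median log2 difference was 0.07.

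Among ligands and upstream cytokines, Il5, the main eosinophil growth factor, and Il3 were at the floor in all 6 libraries, and Csf2 was above it only in DMP-777 replicate 1. Ccl24, the gene of eotaxin-2, was at 7.91, 42.2 and 25.6 RPKM in the L635 libraries and at 2.9, 49.2 and 62.6 RPKM in the DMP-777 libraries. The 2 groups overlapped widely (log2 difference -0.09 ± 0.87, limma adjusted p = 0.978). Ccl11, the gene of eotaxin-1, did not exceed 2.34 RPKM in any library. Il33, the epithelial alarmin gene that acts upstream of type 2 immunity, was at 1.44, 128.8 and 41.2 RPKM in the L635 libraries and at 25.9, 7.05 and 15.2 RPKM in the DMP-777 libraries. It was highest in L635 replicate 2 and lowest in L635 replicate 1, and its limma adjusted p was 0.856. The chemokine genes Ccl7 and Ccl5 were highest in DMP-777 replicate 1, at 30.2 RPKM, and in L635 replicate 1, at 31.0 RPKM.

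The other receptor genes differed in the library where they were highest. Csf2rb, the chain shared by the receptors of interleukin 5, interleukin 3 and GM-CSF, was at 102.0, 86.6 and 59.8 RPKM in the L635 libraries and at 37.4, 66.3 and 125.2 RPKM in the DMP-777 libraries. L635 replicate 2 was not the highest (log2 difference 0.25 ± 0.41, limma adjusted p = 0.856), and macrophages also express this chain. Csf2ra, the alpha chain gene of the GM-CSF receptor, was highest in L635 replicate 1, at 78.8 RPKM. Csf2rb2, the interleukin 3-specific beta chain gene of the mouse, and Siglece, an inhibitory lectin gene of myeloid cells, were highest in DMP-777 replicate 3, at 74.7 and 75.8 RPKM. Of the 10 receptor genes tested, 7 were higher in L635 and 3 lower, with a median log2 difference of 0.21. Il1rl1, the interleukin 33 receptor gene, was at 9.8, 13.0 and 1.0 RPKM in the L635 libraries and at 1.73, 3.0 and 2.06 RPKM in the DMP-777 libraries. It was highest in L635 replicate 2 and at the floor in L635 replicate 3 (adjusted p = 0.594 in the limma fit). Ptgdr2, the prostaglandin D2 receptor gene of eosinophils, mast cells and type 2 lymphocytes, was at 1.05, 7.97 and 3.01 RPKM in the L635 libraries and at 1.0, 2.26 and 4.16 RPKM in the DMP-777 libraries. As for Siglec5 and Ccr3, L635 replicate 2 was first and DMP-777 replicate 3 second (limma adjusted p = 0.840), and Ptgdr2 is named after its values were seen.

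Of the other granule genes on the list, 5 were in the table, 4 of these were above the floor in at least 1 library, and only Ear11 was above it often enough to be tested. Ear11, a further ribonuclease gene of the family, was at 4.17, 62.7 and 1.0 RPKM in the L635 libraries and at 1.0, 1.0 and 31.7 RPKM in the DMP-777 libraries. Its 2 highest libraries were L635 replicate 2 and DMP-777 replicate 3 (log2 difference 0.78 ± 1.20, limma adjusted p = 0.848), and without L635 replicate 2 the difference was -0.66. Prg3, which encodes a homolog of major basic protein, was above the floor only in DMP-777 replicate 3, at 3.27 RPKM. The ribonuclease gene Ear14 was above it only in DMP-777 replicate 1, at 6.93 RPKM, and Ear10 only in DMP-777 replicates 2 and 3, at 1.95 and 2.06 RPKM.

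Among transcription factors, Gata1, required for the eosinophil lineage, was at 1.0, 9.43 and 1.56 RPKM in the L635 libraries and at 1.0, 1.0 and 1.61 RPKM in the DMP-777 libraries. It was highest in L635 replicate 2 (log2 difference 0.79 ± 0.54, limma adjusted p = 0.642), and without that library the difference was 0.05. Gata2, also a factor of mast cells and basophils, was instead highest in L635 replicate 1, at 15.2 RPKM. Of the 10 factors tested, 4 were higher in L635 and 6 lower, with a median of -0.04. Id2, Xbp1, Spi1 and Trib1 were the most abundant and were above the floor in all libraries, and macrophages express them too.

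The lipid mediator genes gave no common direction, with 3 higher and 3 lower of 6 tested. Alox5ap, which encodes the 5-lipoxygenase-activating protein, was the most abundant and was highest in DMP-777 replicate 2, at 276.1 RPKM. Alox5, the gene of 5-lipoxygenase itself, was highest in L635 replicate 2, at 30.3 RPKM. Ltc4s, the leukotriene C4 synthase gene, was highest in DMP-777 replicate 1, at 69.4 RPKM, and the cyclooxygenase 1 gene Ptgs1 in DMP-777 replicate 3, at 31.7 RPKM. Of 12 surface and tissue genes tested, 9 were higher in L635 and 3 lower, with a median log2 difference of 0.34, and 6 were highest in L635 replicate 2. Itgam, the integrin alpha M gene of myeloid cells, was among these at 138.6 RPKM, while Cd24a, also made by epithelial cells, was highest in DMP-777 replicate 2 at 649.6 RPKM. The leukocyte integrin genes Itgb2 and Itgax were highest in DMP-777 replicate 3, at 150.9 and 130.6 RPKM.

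Markers of other cells that the gate could hold were read beside the eosinophil genes, and their part in the eosinophil values was not tested. All 11 mast cell genes were highest in L635 replicate 1, where their mean log2 level was 5.87, against 2.01 and 1.10 in the other L635 libraries and 2.78, 3.79 and 2.58 in the DMP-777 libraries. The mast cell and eosinophil genes were thus highest in different L635 libraries. The mean log2 level of the basophil genes was 2.96 in L635 replicate 1, and the remaining libraries did not exceed 1.52. Of these genes, Fcer1a and Ms4a2, at 39.0 and 13.9 RPKM in L635 replicate 1, are also on the mast cell list. Cd200r3 was highest there too, at 4.32 RPKM. Mcpt8 was instead highest in DMP-777 replicate 3, at 5.25 RPKM, against 3.46 RPKM in L635 replicate 1, and Prss34 was at the floor in all 6 libraries.

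Neutrophil genes were of special interest because Cebpe is shared with neutrophils. Of 12 neutrophil genes, 3 were at the floor in all 6 libraries, and these were Ly6g, Mpo and Elane. The summed level of the list was 161.4, 530.3 and 168.3 RPKM in the L635 libraries and 157.4, 327.7 and 347.0 RPKM in the DMP-777 libraries. This sum was highest in L635 replicate 2 and was carried by Retnlg, at 81.9, 471.3 and 79.5 RPKM in the L635 libraries and 85.1, 278.8 and 256.9 RPKM in the DMP-777 libraries. Retnlg encodes a resistin-like protein of myeloid cells. The mean log2 level of the neutrophil list was 2.39, 2.58 and 2.51 in the L635 libraries and 2.52, 2.15 and 2.59 in the DMP-777 libraries, so by that measure L635 replicate 2 did not stand apart.

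Macrophage and general epithelial genes were not highest in L635 replicate 2. The mean log2 level of 12 macrophage genes was 6.92, 6.16 and 6.0 in the L635 libraries and 5.99, 6.79 and 7.03 in the DMP-777 libraries. General epithelial genes were at 5.66, 5.59 and 5.40 in the L635 libraries and at 5.89, 6.08 and 5.61 in the DMP-777 libraries on the same scale. Surface mucous cell genes were at 8.22, 8.25 and 8.24 in the L635 libraries and at 9.92, 9.49 and 8.70 in the DMP-777 libraries. Parietal cell genes were at 6.81, 6.13 and 5.10 in the L635 libraries and at 6.59, 7.40 and 5.81 in the DMP-777 libraries. Epithelial RNA was thus in every library, and its effect on the RPKM of other genes was not tested. The type 2 innate lymphoid cell list of 9 genes did have its highest summed level in L635 replicate 2. The sums were 34.6, 62.6 and 39.3 RPKM in the L635 libraries and 33.0, 33.6 and 28.1 RPKM in the DMP-777 libraries. The mean log2 level was 1.98, 2.04 and 1.70 in the L635 libraries and 1.77, 1.75 and 1.68 in the DMP-777 libraries. Areg, the growth factor gene of amphiregulin, and Il1rl1 were the 2 genes of the list that were highest in L635 replicate 2, at 35.1 and 13.0 RPKM, and neither is limited to these cells. Gata3 and Il5, which define the cell type, were at the floor in all 6 libraries.

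**Figure D4:**
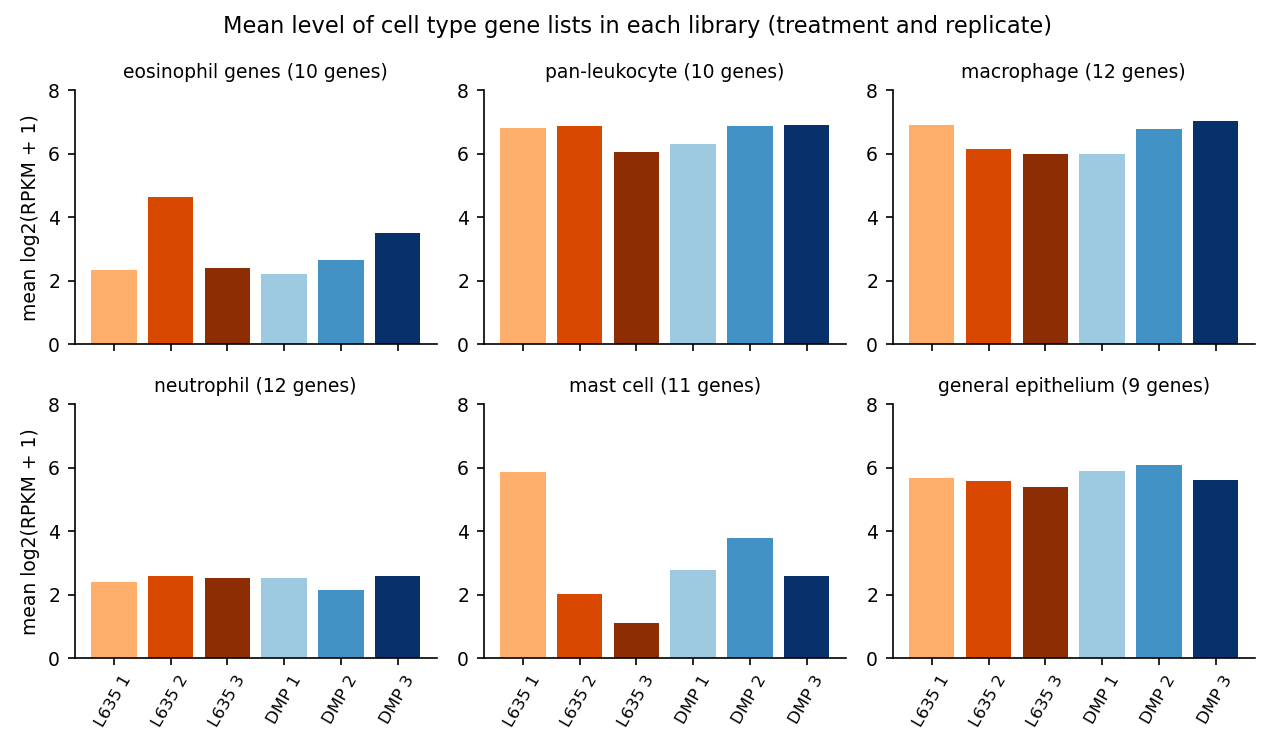
Mean log2(RPKM + 1) of the marker genes of several cell types in each L635 and DMP-777 library. The eosinophil list is highest in L635 replicate 2 at 4.66, and the mast cell list in L635 replicate 1 at 5.87.

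Genes with profiles like that of the eosinophil genes were sought among 6048 other genes with at least the median level of the tested genes. Likeness was Pearson's r over the 6 libraries with the mean of the 9 standardised eosinophil genes, and 29 genes had an r of 0.9 or more. The nearest was Gapt, which encodes a membrane protein that binds the adaptor GRB2, with an r of 0.987. Its level was 13.5, 130.4 and 17.6 RPKM in the L635 libraries and 10.9, 21.5 and 60.5 RPKM in the DMP-777 libraries. L635 replicate 2 was highest and DMP-777 replicate 3 second, as for Siglec5, Ccr3 and Alox15.

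The next genes were Cyb5r4, Ncf1, Pik3cg, Gsr, Sppl3, Defb40 and G0s2, with r from 0.956 to 0.98. Ncf1, a subunit gene of the phagocyte NADPH oxidase, was at 63.5, 132.0 and 50.7 RPKM in the L635 libraries and at 46.9, 57.5 and 94.9 RPKM in the DMP-777 libraries. G0s2, which encodes an inhibitor of the triglyceride lipase ATGL, was at 4.73, 51.6 and 3.43 RPKM in the L635 libraries and at 3.12, 8.7 and 42.8 RPKM in the DMP-777 libraries. In both, L635 replicate 2 was first and DMP-777 replicate 3 second. With 6048 genes and 6 libraries, high values of r arise often, and nothing about shared function follows from them.

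**Figure D5:**
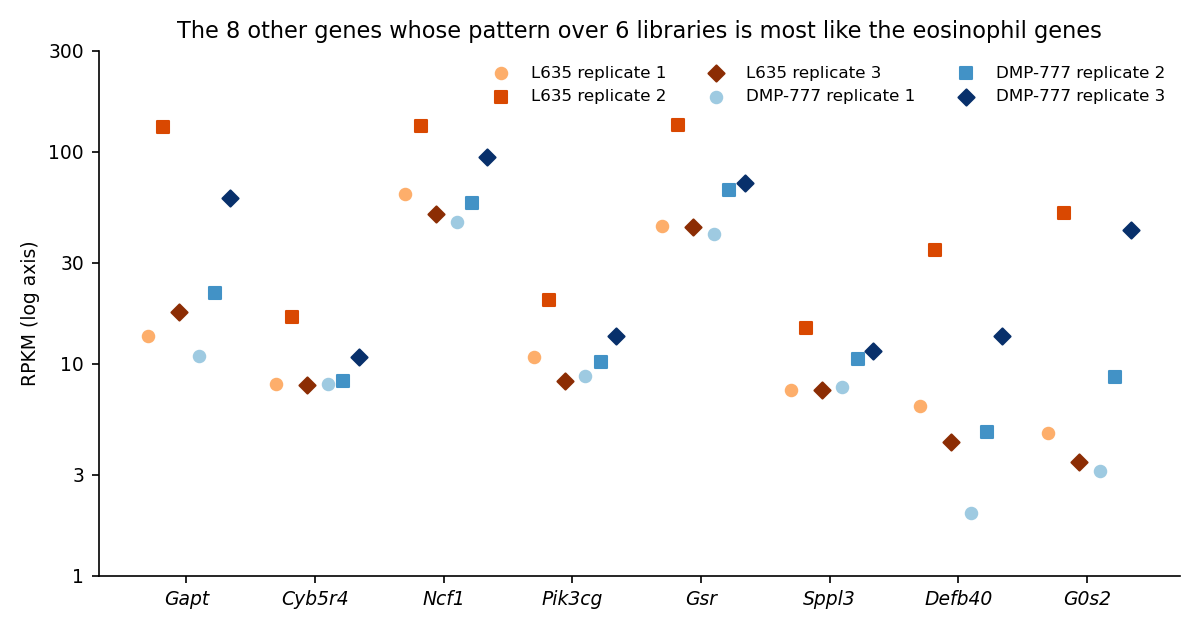
Levels across the L635 and DMP-777 libraries of the 8 genes whose profile over the 6 libraries was most like the mean of the standardised eosinophil genes. Gapt, with an r of 0.987, is highest in L635 replicate 2 at 130.4 RPKM.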

How the data were processed

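Cells were dispersed with Dispase and sorted for F4/80, and RNA with an integrity number of at least 7 was amplified with the NuGEN Ovation kit, per the labels' protocols. Single-end reads were made on a HiSeq2500. Per the submitters' processing notes, FastQC, TopHat 1.4, SAMtools and the mm9 build were used. No quantifier is named. The deposited values were recognised as RPKM from their range and have a floor of 1.0. Gene coordinates matched GRCm38 (GENCODE M21) and are given as such: 99.8% of 22268 shared identifiers overlapped the same gene. Depth was estimated from the spacing of low RPKM values, so it is approximate.

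Log2(RPKM + 1) was compared with limma 3.58.1 in R 4.3.3 (trend, 3 libraries against 3, 12102 genes above the floor in at least 3 libraries, Benjamini-Hochberg threshold 0.05). The fit was also run on simulated data, with 200 genes at or above the median level shifted in each of 5 runs. It recovered 4.8%, 61.6%, 90.4% and 93.6% of genes shifted by a log2 of 1, 2, 3 and 4, so most changes near 1 would be missed. Named are all 10 eosinophil genes, of the other eosinophil genes the 4 most abundant of each role with fixed key genes, markers from the cell type lists and the 8 genes of most similar profile. Members and lists were chosen with earlier results of these data known. Replicate numbers were given in accession order.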

Additional observations from a re-analysis of the deposited data

How the results depend on the processing

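Genes called numbered 0 with all alternatives of pseudocount, filter, quantile or median scaling, array weights, trend and each library left out in turn, and 12 after each library was centred on the pan-leukocyte genes; the cause was not tested. None of these 12 was an eosinophil gene. The mean difference of the 10 eosinophil genes ran from 0.25 (median centring) to 0.45 (pan-leukocyte centring), and from -0.42 to 0.73 with 1 library left out. Of single genes, Ear1 (3 times), Ccr3, Alox15 and Cebpe (2 times each) and Siglec5 and Il5ra (1 time each) changed sign with a library left out, and Prg2, Ear6 and Ear2 did not. With other settings Alox15 changed sign (-0.01 with array weights, against 0.28), and Ear2 came to -0.00 with quantile normalisation. The remaining genes kept their sign with these settings. With these other settings, no single-gene difference moved by more than that gene's SD pooled over the 2 groups. In groups of this size, leaving a library out cannot move a difference that far, so this measure says nothing about stability there. Each symbol had 1 entry, so summing entries changed nothing. No paired analysis was possible because the replicate numbers follow accession order and tie no L635 library to a DMP-777 library. The floor of 1.0 RPKM hides any lower level, for Epx in all libraries and for Prg2, Ear1 and Ear6 in those listed at 1.0.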
